A study of Mus musculus with 13 samples.

Results

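Basement membrane genes of parietal endoderm were followed in mouse RNA sources named NT1 and TBV. The set holds 7 genes, namely the laminin chains Lama1 and Lamc1, the collagen IV chains Col4a1 and Col4a2, the linker Nid2, the collagen-binding glycoprotein Sparc and the collagen chaperone Serpinh1. Members were found as probes whose annotation names exactly 1 gene symbol and that symbol is in the set. This gave 12 probes of 20205 in the table, and all 7 members were found among 9669 named genes. Lamc1 and Sparc had 3 probes each, Col4a1 had 2, and Lama1, Col4a2, Nid2 and Serpinh1 had 1 each.

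A basement membrane is a thin sheet of matrix built from a laminin network and a collagen IV network, which nidogens hold together. Parietal endoderm is the outer extraembryonic endoderm of the rodent embryo, and it lays down the thick Reichert's membrane, so its cells are known for very large output of laminin, collagen IV and Sparc. Embryonic stem cells that turn toward primitive endoderm begin to make these proteins, and fibroblasts, which are often used as feeder cells, make several of them as well.

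NT1 is the source that the series title pairs with a homozygous Sall4 mutation (Sall4 -/-), and TBV is the source it was set against, with no genotype of its own in the labels. Sall4 is a zinc finger regulator that early embryos and pluripotent cells express. Each of the 13 arrays held NT1 RNA in one dye and TBV RNA in the other, with NT1 in Cy5 on 7 arrays and TBV in Cy5 on 6. Sources were paired in 4 ways. NT1p14 met TBVp13 on 5 arrays (called the p14/p13 pair here), NT1p12 met TBVp12 on 4 (the p12/p12 pair), NT1 1 met TBV2 on 2 (the NT1 1 pair) and NT1p12 met TBVp13 on 2 (the p12/p13 pair). The labels speak of passages, so the number after p was read as one. They give no cell type, tissue, age or treatment, and as far as they tell there was a single NT1 and a single TBV line, although an embryonic stem cell line of the mouse also goes by the name TBV2. The p12/p13 pair shares both sources with other pairs and was left out of the comparison across pairs. This leaves 3 pairs with no source name in common, taken to share no RNA source and called independent here. What NT1 1 and TBV2 stand for is not stated, so this is read from the names only. With a single line on each side, as far as the labels tell, these pairs do not replicate the genotype.

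Every value below is a log2 ratio of NT1 over TBV on an array centred on its median, with positive values for more signal in NT1. This direction rests on an unsettled point, since no source used here says that the deposited values are Cy5 over Cy3, and with the reverse reading every sign would turn. The table holds ratios only, so levels cannot be compared between genes or probes, and in bulk RNA fewer cells of a type and less RNA per cell cannot be told apart. Arrays carried 14314 to 18381 values, and 2.40% to 40.4% of an array's values were whole numbers. Of 156 possible values of the member probes 137 were present and 46 were whole numbers, so part of the member ratios are coarse, and a 0 among them stands for a range of small ratios. Over all probes, the pair values of the p14/p13 pair and the p12/p12 pair correlated at r = -0.50 (16317 probes, which are not independent replicates). The Sall4 probe was at 0.07 in the p14/p13 pair, -0.59 in the p12/p12 pair (limma adjusted p = 0.033) and -0.32 in the NT1 1 pair. Its position relative to the mutated stretch is unknown here, which leaves the labels unchecked by it.

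Gene starts in RefSeq (GRCm38.p6) gave promoter windows of 300 bases, from 250 before to 50 after the start, for 4 of the 7 members. The windows of Col4a1 and Col4a2 are shown because these genes lie head to head and share 78 bases, printed in capitals in both. Those of Sparc and Serpinh1 are shown because these were the members with the largest ratios; capitals in the Serpinh1 window mark a GC box. All are printed 5′ to 3′ on the strand of the gene.
Col4a1, chr8:11312777-11313076, minus strand: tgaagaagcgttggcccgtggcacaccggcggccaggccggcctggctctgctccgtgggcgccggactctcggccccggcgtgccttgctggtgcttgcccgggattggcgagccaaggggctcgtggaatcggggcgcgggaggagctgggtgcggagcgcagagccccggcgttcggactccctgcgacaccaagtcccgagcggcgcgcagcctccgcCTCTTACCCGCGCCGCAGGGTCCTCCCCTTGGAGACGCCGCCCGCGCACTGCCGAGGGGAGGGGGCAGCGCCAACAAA
Col4a2, chr8:11312555-11312854, plus strand: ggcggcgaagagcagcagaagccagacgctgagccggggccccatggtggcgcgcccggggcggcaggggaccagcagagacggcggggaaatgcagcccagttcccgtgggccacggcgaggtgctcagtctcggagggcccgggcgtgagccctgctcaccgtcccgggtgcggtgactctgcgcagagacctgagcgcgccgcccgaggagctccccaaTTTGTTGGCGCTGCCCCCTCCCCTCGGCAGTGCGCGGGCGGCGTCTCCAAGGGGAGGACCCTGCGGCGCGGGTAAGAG
Sparc, chr11:55420031-55420330, minus strand: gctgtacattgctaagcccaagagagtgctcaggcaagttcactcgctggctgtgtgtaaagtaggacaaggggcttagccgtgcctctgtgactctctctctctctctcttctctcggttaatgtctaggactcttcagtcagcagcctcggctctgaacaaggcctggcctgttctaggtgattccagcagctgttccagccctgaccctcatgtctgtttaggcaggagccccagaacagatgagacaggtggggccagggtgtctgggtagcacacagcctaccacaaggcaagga
Serpinh1, chr7:99353190-99353489, minus strand: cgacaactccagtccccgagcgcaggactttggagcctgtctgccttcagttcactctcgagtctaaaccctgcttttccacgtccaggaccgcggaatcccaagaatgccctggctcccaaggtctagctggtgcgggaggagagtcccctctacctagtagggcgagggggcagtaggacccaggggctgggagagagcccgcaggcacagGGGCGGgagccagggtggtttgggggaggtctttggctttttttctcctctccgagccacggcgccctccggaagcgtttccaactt
Both strands of each window were searched for the GC box (GGGCGG), the CCAAT box (CCAAT), the TATA box (TATAAA), the core of the heat shock element (TTCNNGAA) and the GATA motif (AGATAA). No match overlapped a match of another motif. Col4a1 held 1 GC box and 1 CCAAT, and Col4a2 held 3 GC boxes and 1 CCAAT. Serpinh1 held 1 GC box, and the Sparc window held none of the 5 motifs. Of 32851 mouse windows, 35.7% hold a GC box, 37.4% CCAAT, 13.6% TATAAA, 8.52% TTCNNGAA and 11.2% AGATAA. The bases G and C made up 74% of the Col4a1 window, 73.7% of the Col4a2 window, 62.3% of the Serpinh1 window and 55.3% of the Sparc window, beside a median of 52.7% over all windows. A match is a description of letters and not a site.

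The first comparison asked whether NT1 differed from TBV across the 3 independent pairs. No member did beyond the spread between pairs. In the limma fit, 0 of 10 member probes with a value in all pairs passed an adjusted p of 0.05, beside 0 of 15973 probes in all (0%). Unadjusted p was under 0.05 for 0 member probes as well, beside 1.03% of all probes. None of the 10 member probes lay on the same side of 0 in all 3 pairs, where 9.05% of all probes lay above 0 in each pair and 5.33% below.

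The means over pairs ran between -0.32 ± 0.71 for Lamc1 probe 2 and 0.26 ± 0.35 for Col4a1 probe 2 (SD, n = 3). The widest spreads belonged to Serpinh1, at 0.15 ± 1.17, and Sparc probe 1, at -0.15 ± 1.00. The narrowest were those of Lama1, at 0.14 ± 0.15, and Nid2, at 0.03 ± 0.17. Adjusted p was 1.00 for all 10 probes in the limma fit on 3 pairs. Thus the members that differed most between pairs were the chaperone and the matricellular glycoprotein.

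**Figure D1:**
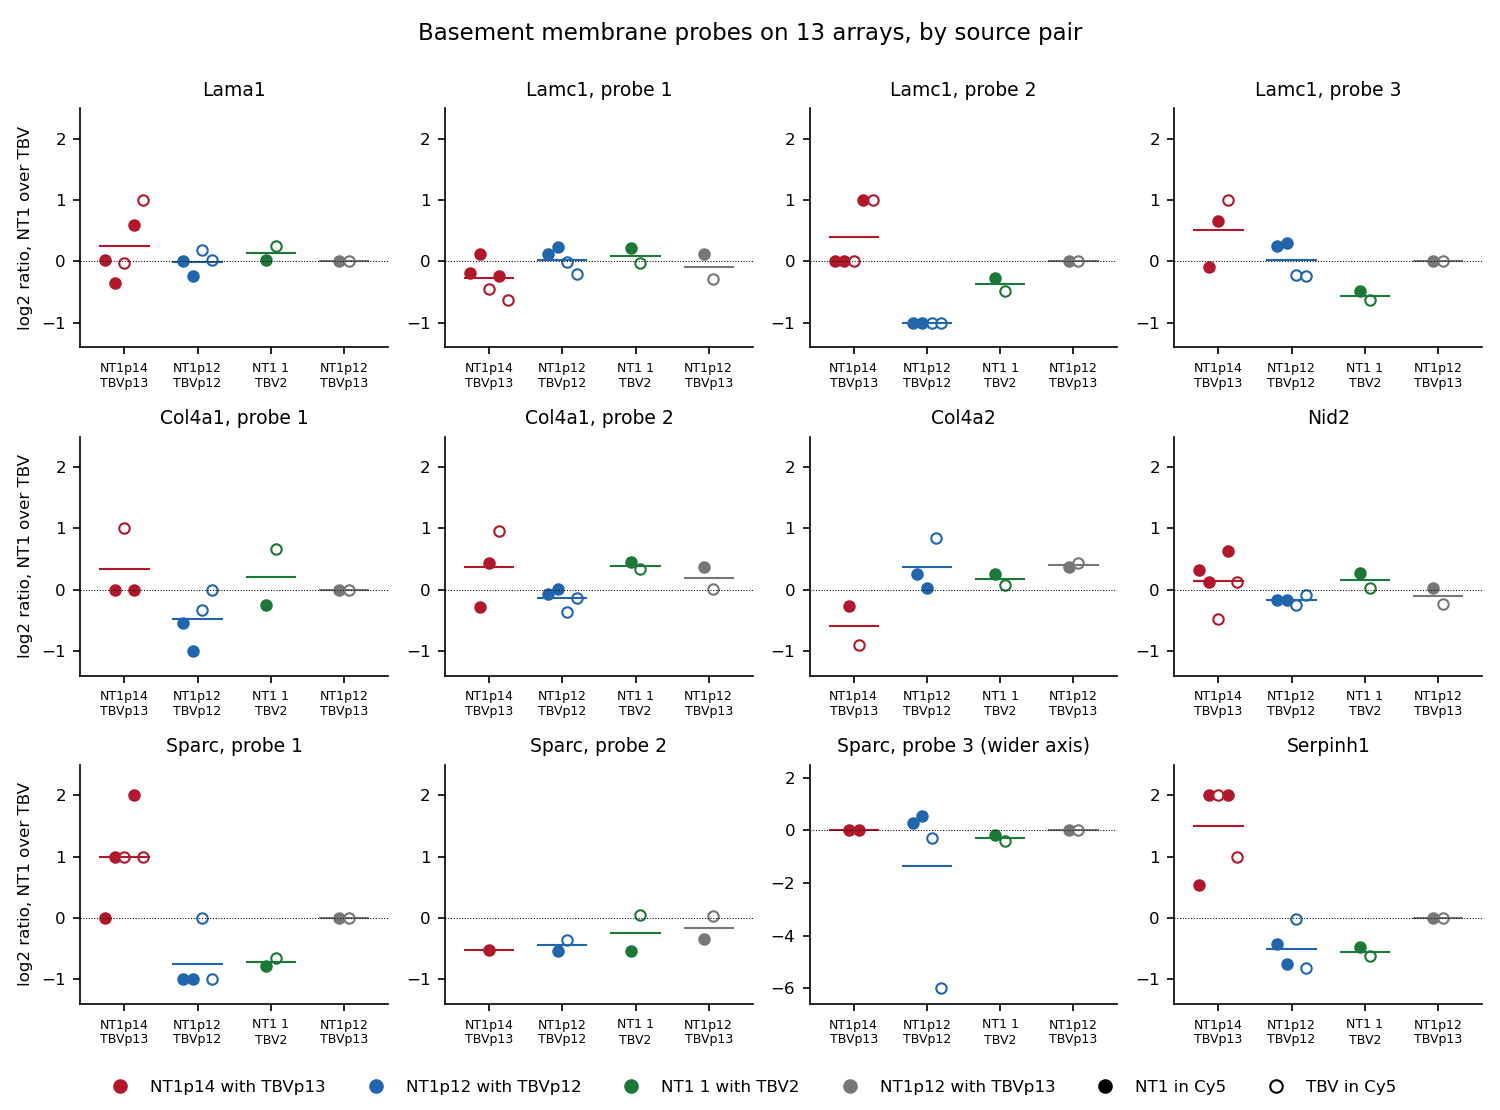
Log2 ratio of NT1 over TBV (vertical axis) of the 12 member probes on 13 arrays, by source pair; filled points have NT1 in Cy5, open points TBV in Cy5, and lines are the plain means of the arrays. Serpinh1 lies at 0.54 to 2 in the p14/p13 pair and at or below -0.01 in the p12/p12 pair and the NT1 1 pair.

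The second comparison set the p14/p13 pair against the p12/p12 pair, the pairs with the most arrays, in a limma fit of all 13 arrays with a dye term. Serpinh1, Sparc probe 1, Lamc1 probe 2 and Col4a1 probe 1 had a higher NT1 over TBV ratio in the p14/p13 pair, by 2.01, 1.77, 1.40 and 0.91 on the log2 scale in this order. These were 4 of the 10 member probes tested, and all 4 probes that passed were higher. At an unadjusted p under 0.05, 2 more lay lower, Lamc1 probe 1 and Col4a2. Over all 14299 probes 25.5% passed, 12.7% higher and 12.8% lower. Without arrays 4 and 5 of the p14/p13 pair, whose values over all probes spread most widely (SD 1.00 and 1.14, against 0.335 to 0.807 on the other arrays), 8 member probes could be tested and the same 4 passed, an alternative chosen after seeing the data. Over all probes 1193 passed in that setting, against 3646 with all arrays. The share was not worked out, here or for the lists below, so counts in that setting have no background beside them. Arrays of a pair are repeat hybridisations of the same RNA sources, so these p-values measure the spread between arrays and compare these RNA sources, not passages. Where values are whole numbers, that spread is seen only in coarse steps.

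Serpinh1 encodes an endoplasmic reticulum chaperone that binds procollagen, collagen IV included, and is needed for its secretion. Its probe read 0.54, 2, 2, 2 and 1 on the 5 arrays of the p14/p13 pair, against -0.42, -0.75, -0.01 and -0.81 on the 4 arrays of the p12/p12 pair. It read -0.48 and -0.61 in the NT1 1 pair, and 0 on both arrays of the p12/p13 pair. Every array of the p14/p13 pair therefore lay above 0 and above every other array, and the groups did not overlap. How many of all probes show such a gap was not counted, here or for the probes below. Of the 13 Serpinh1 values 6 were whole numbers, so the size of these is known only to about 1 step of log2. The difference between both pairs was 2.01 (SE 0.32, 4.02-fold, limma adjusted p = 0.0098), and its rank was 189 among the 14299 probes. Against 0, the p14/p13 pair stood at 1.51 (SE 0.22, 2.85-fold, limma adjusted p = 0.014). The other pairs did not pass, with -0.50 in the p12/p12 pair (limma adjusted p = 0.32) and -0.55 in the NT1 1 pair (limma adjusted p = 1.00, where 0.021% of all probes passed). Without arrays 4 and 5 of the p14/p13 pair, the difference was 2.05 (limma adjusted p = 0.024). The ratio of the p14/p13 pair against 0 was then 1.55 and did not pass (limma adjusted p = 0.090).

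Sparc, a calcium-binding glycoprotein that binds collagen IV, is among the most abundant products of parietal endoderm. Its probe 1 read 0, 1, 1, 2 and 1 in the p14/p13 pair, against -1, -1, 0 and -1 in the p12/p12 pair. In the NT1 1 pair it read -0.78 and -0.65, and in the p12/p13 pair it read 0 and 0. The first pair lay at or above 0 and the second at or below, and they met only at 0. The difference was 1.77 (SE 0.34, 3.40-fold, limma adjusted p = 0.012), and 1.47 without arrays 4 and 5 of the p14/p13 pair (limma adjusted p = 0.027). The p14/p13 pair against 0 was at 1.02 (SE 0.23, 2.02-fold, limma adjusted p = 0.024), while the p12/p12 pair at -0.75 and the NT1 1 pair at -0.71 did not pass (limma adjusted p = 0.19 and 1.00). Without arrays 4 and 5 the value in the p14/p13 pair was 0.72 and no longer passed (limma adjusted p = 0.19). Only 3 of all probes passed against 0 in this pair then, against 2654 with all arrays. Leaving out array 4 alone gave 0.75 (limma adjusted p = 0.067) and array 5 alone 1.05 (limma adjusted p = 0.083). With arrays scaled to the same spread the value in the p14/p13 pair was 0.59 and did not pass (limma adjusted p = 0.10). Of the 13 values of probe 1, 11 were whole numbers, so their size is known only to about 1 step of log2.

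The other Sparc probes did not repeat this pattern. Probe 2, with no whole numbers, had 7 values: -0.52 on the only array of the p14/p13 pair that measured it, against -0.54 and -0.36 in the p12/p12 pair. The NT1 1 pair gave -0.53 and 0.05 and the p12/p13 pair gave -0.34 and 0.03. It was below 0 on 5 of 7 arrays, the NT1p14 array included. Probe 3 read 0 on the 2 arrays of the p14/p13 pair that measured it, against 0.27, 0.56, -0.30 and -6 in the p12/p12 pair. Its other values were -0.18 and -0.40 in the NT1 1 pair and 0 on both arrays of the p12/p13 pair. Probes 2 and 3 had no value on arrays of the p14/p13 pair that carry TBV in Cy5, so they gave no pair value there and entered neither fit. The Sparc result is therefore that of 1 probe of 3.

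Among the laminin chains, Lamc1 encodes γ1, a chain shared by most laminin trimers, and its 3 probes disagreed. Probe 2 read 0, 0, 0, 1 and 1 in the p14/p13 pair, against -1 on all 4 arrays of the p12/p12 pair. Its values were -0.27 and -0.48 in the NT1 1 pair and 0 and 0 in the p12/p13 pair. The groups did not overlap, and the difference was 1.40 (SE 0.24, 2.64-fold, limma adjusted p = 0.011). It was 0.99 without arrays 4 and 5 of the p14/p13 pair (limma adjusted p = 0.0072). In the p12/p12 pair the ratio of -1 passed against 0 (SE 0.18, limma adjusted p = 0.038, where 0.685% of all probes passed in either direction). That call was lost without array 1, 2 or 4 of the pair (limma adjusted p = 0.22, 0.22 and 0.24), at an estimate of -1.01 to -0.99 in these fits. With ribosomal centring the ratio was -0.55 and did not pass (limma adjusted p = 0.11). Of its 13 values 11 were whole numbers, among them every value of the p14/p13 pair and the p12/p12 pair. Spread below 1 step of log2 is hidden there, so these p-values do not measure it.

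Lamc1 probe 1, with no whole numbers, went the other way. It read -0.19, 0.13, -0.44, -0.24 and -0.63 in the p14/p13 pair, against 0.11, 0.23, -0.01 and -0.21 in the p12/p12 pair, and the groups overlapped. In the p14/p13 pair it was lower in NT1 by 0.31 on the log2 scale, an estimate of -0.31 (SE 0.09, 1.24-fold, limma adjusted p = 0.037). In that pair 18.6% of all probes passed against 0, 9.24% higher and 9.32% lower, beside 2 higher and 1 lower of the 10 member probes. The call was lost without array 3, 4 or 5, with -0.32, -0.28 and -0.26 (limma adjusted p = 0.051, 0.0998 and 0.14). It was also lost with scaled arrays, at -0.22 (limma adjusted p = 0.33), and without the dye term, at -0.27 (limma adjusted p = 0.15). The difference between the pairs was -0.34 (SE 0.13) and did not pass (limma adjusted p = 0.072). Probe 3 read -0.09, 0.66 and 1 on 3 arrays of the p14/p13 pair, against 0.25, 0.30, -0.22 and -0.24 in the p12/p12 pair. Its difference of 0.49 (SE 0.27) did not pass (limma adjusted p = 0.20), although without array 1 of the p14/p13 pair it was 0.81 (limma adjusted p = 0.025). In the NT1 1 pair probe 1 read 0.21 and -0.03 and probe 3 read -0.48 and -0.63, so the probes of this gene stood on both sides of 0 within a single pair as well.

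Lama1 encodes α1, the laminin chain most closely tied to the embryonic basement membranes and to Reichert's membrane. It read 0.03, -0.34, -0.03, 0.60 and 1 in the p14/p13 pair, against 0.0031, -0.23, 0.19 and 0.03 in the p12/p12 pair. The values of the NT1 1 pair were 0.02 and 0.25, and those of the p12/p13 pair were 0 and 0. The groups overlapped, and its difference of 0.28 (SE 0.23) did not pass (limma adjusted p = 0.38). Without arrays 4 and 5 of the p14/p13 pair, the highest on this probe, the difference was -0.09 (limma adjusted p = 0.70).

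Collagen IV is a trimer of Col4a1 and Col4a2 chains, so both are made together where this collagen is assembled. Col4a1 probe 1 read 0, 1 and 0 on 3 arrays of the p14/p13 pair, against -0.54, -1, -0.33 and 0 in the p12/p12 pair. It read -0.25 and 0.66 in the NT1 1 pair and 0 on both arrays of the p12/p13 pair. The pairs met at 0, and the difference was 0.91 (SE 0.22, 1.88-fold, limma adjusted p = 0.022), with 7 of 11 values whole. It was 0.97 without arrays 4 and 5 of the p14/p13 pair (limma adjusted p = 0.043). It did not pass without array 2 or array 4 of the p12/p12 pair, with 0.82 and 0.96 (limma adjusted p = 0.072 and 0.058), nor without the dye term, with 0.80 (limma adjusted p = 0.11). The dye effect of this probe was -0.32 (SE 0.09, limma adjusted p = 0.060). Probe 2, with no whole numbers, read -0.28, 0.43 and 0.96 in the p14/p13 pair, against -0.06, 0.01, -0.35 and -0.14 in the p12/p12 pair. The groups overlapped, and the difference of 0.52 (SE 0.28) did not pass (limma adjusted p = 0.18), although without array 1 of the p14/p13 pair it was 0.83 (limma adjusted p = 0.024). In the NT1 1 pair probe 2 read 0.45 and 0.33.

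Col4a2 lay on the opposite side. Its probe read -0.27 and -0.90 on the 2 arrays of the p14/p13 pair that measured it, against 0.26, 0.03 and 0.85 in the p12/p12 pair. It read 0.27 and 0.08 in the NT1 1 pair and 0.38 and 0.44 in the p12/p13 pair. Thus the NT1p14 arrays were below 0 and the 7 other arrays above, without overlap. The difference of -0.97 (SE 0.31) did not pass (limma adjusted p = 0.058). At the same size it passed as lower with whole numbers taken as missing (limma adjusted p = 0.016), a setting under which none of the 4 probes that were higher gave a value. It lay at percentile 1.64 of all probes, whereas the 2 Col4a1 probes lay at 88.2 and 78.5. Whether Col4a2 differed from Col4a1 was not tested, and the Col4a2 value in the p14/p13 pair rests on 2 arrays.

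Nid2, a nidogen that links the laminin and collagen IV networks, had no whole-number values. It read 0.32, 0.13, -0.48, 0.63 and 0.13 in the p14/p13 pair, against -0.17, -0.16, -0.25 and -0.09 in the p12/p12 pair. In the NT1 1 pair it read 0.28 and 0.03, and in the p12/p13 pair 0.03 and -0.24. The groups overlapped through array 3 of the first pair, and the difference of 0.28 (SE 0.17) did not pass (limma adjusted p = 0.23).

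**Figure D2:**
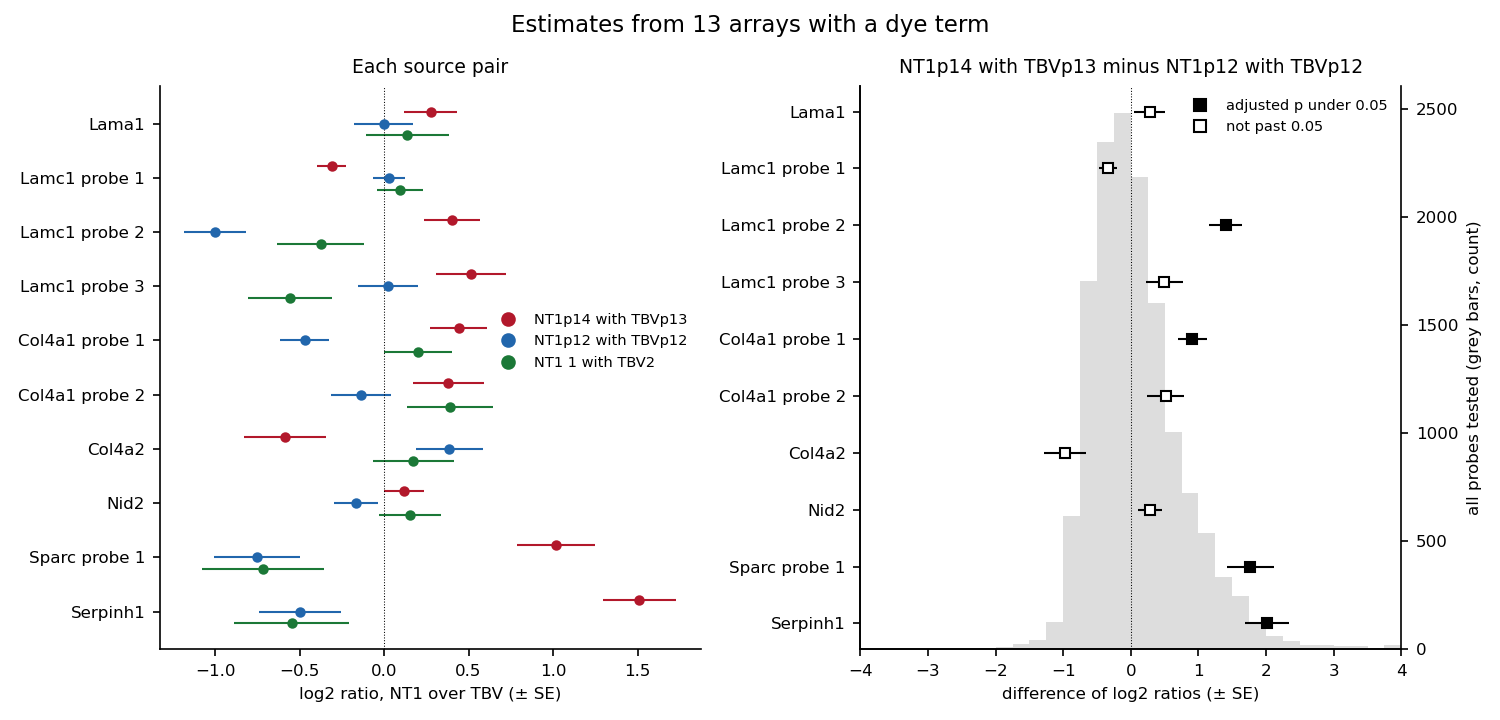
Left, log2 ratio of NT1 over TBV (± SE) of 10 member probes in 3 source pairs from the limma fit on arrays; right, difference between the p14/p13 pair and the p12/p12 pair (± SE), filled where adjusted p passed 0.05, over the distribution of all 14299 probes (grey, whose end bars also hold the 13 probes beyond 4). The 4 filled probes lie at 0.91 to 2.01, and Col4a2 at -0.97.

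The choice of centring bears on these results. Ribosomal protein genes stood at 1 on arrays 4 and 5 of the p14/p13 pair and at -0.62 to -0.58 on 3 arrays of the p12/p12 pair. Centring each array on them moved the median difference of all probes to -0.93, against -0.02 with the array medians. It moved the share of calls that were higher to 2.76% (242 of 8757), against 49.6%. Serpinh1 at 1.11 and Sparc probe 1 at 0.87 still passed (limma adjusted p = 0.020 and 0.021). Relative to that median Serpinh1 stood at 2.04, Sparc probe 1 at 1.80, Lamc1 probe 2 at 1.44 and Col4a1 probe 1 at 1.07, against 2.03, 1.79, 1.43 and 0.93 with the array medians. Lamc1 probe 2 at 0.50 and Col4a1 probe 1 at 0.13 no longer passed (limma adjusted p = 0.076 and 0.78). Lama1 turned to -0.62, Lamc1 probe 1 to -1.24 and Col4a2 to -2.03, and all 3 passed as lower (limma adjusted p = 0.040, 0.0089 and 0.0096), while relative to the median of all probes they stood at 0.31, -0.31 and -1.10. With arrays scaled to the same spread, 70.3% of 1043 calls were higher, and Serpinh1 (1.51), Sparc probe 1 (1.16) and Lamc1 probe 2 (0.93) passed while Col4a1 probe 1 (0.67) did not. The dye term passed for 0 of 10 member probes in limma, beside 5.75% of all probes. At an unadjusted p under 0.05 it passed for 2 of them, beside 28.1%.

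The remaining basement membrane components were described from a second list. Of 37 further laminin, collagen, fibulin and related genes 16 were measured, and their median was -0.05 in the p14/p13 pair, 0.01 in the p12/p12 pair and -0.10 in the NT1 1 pair. The members' medians were 0.29, -0.30 and 0.14 in the same order, and those of all named genes 0.03, -0.0033 and -0.0058. Between the pairs 1 of 13 probes of the list passed, beside 25.5% of all probes, namely Fbln2, a fibulin also made by fibroblasts, at 0.69 (SE 0.22, limma adjusted p = 0.040). In the p14/p13 pair alone, Lamb2, a laminin β chain, was lower in NT1 at -0.56 (limma adjusted p = 0.024). Fras1, an extracellular matrix protein, was above 0 in all 3 pairs, with a mean of 0.10. Lama5, a laminin α chain named after its values were seen, was at 2.11 in the p14/p13 pair, -0.25 in the p12/p12 pair and 0.11 in the NT1 1 pair, and it had too few values to enter the fit on arrays.

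Genes that receive or prepare the matrix were described from lists of the same kind. Of 28 receptors and adaptors 21 were measured, and 5 of 24 probes passed between the pairs, all higher, beside 25.5% of all probes in either direction. They were 4 probes of Itgb1, the integrin chain common to most laminin and collagen receptors, at 0.83 to 1.75 (limma adjusted p = 0.0098 to 0.025), and Cd151, a tetraspanin partner of laminin-binding integrins, at 1.04 (limma adjusted p = 0.034). Of 40 genes for collagen folding, modification and secretion 33 were measured, with 6 of 31 probes higher and 2 lower, a share near that of all probes. The higher probes measured the endoplasmic reticulum folding factors Pdia6 at 1.69, Pdia4 at 1.34 and 0.60, Hsp90b1 at 1.33, Canx at 1.11 and Fkbp9 at 1.00 (limma adjusted p = 0.012 to 0.043). Canx and Fkbp9 each had a second probe that did not pass, at 0.25 and 0.14. The lower ones were Fkbp14 at -0.56 and Mia3, which helps to load collagen into transport vesicles, at -0.52 (limma adjusted p = 0.032 and 0.039). Leaving out arrays 4 and 5 of the p14/p13 pair, 4 of 23 receptor probes passed, all higher, and 6 of 30 collagen maturation probes, all higher. With ribosomal centring 11 of 24 receptor probes passed, all lower, and the collagen maturation probes had 1 higher and 18 lower of 31. With scaled arrays 2 receptor probes and 4 collagen maturation probes passed, all higher. Over all probes, 8515 of 8757 calls were lower with ribosomal centring, and 733 of 1043 were higher with scaled arrays. In the p14/p13 pair against 0, the syndecan Sdc2 was higher at 0.46 (limma adjusted p = 0.034) and the collagen galactosyltransferase Colgalt1 at 0.69 (limma adjusted p = 0.037). Receptor genes with the same sign in all 3 pairs had means of 0.49 for Dag1, 0.20 for Sdc2, 0.18 for Itgb5, 0.17 for Tln1, -0.15 for Vcl and -0.19 for Parva. Those of the collagen maturation list were 0.51 for Colgalt1, 0.18 for P4ha1, -0.06 for Plod3 and -0.15 for Dnajb11. The median difference was 0.28 for the receptor probes and 0.18 for the collagen maturation probes, beside 0.50 for the members and -0.02 for all probes.

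The label of parietal endoderm could be checked only in part. Of 28 regulators and markers of parietal and primitive endoderm 12 were measured, and Gata4, Gata6, Sox7, Foxa2 and Dab2, which define the lineage, were not among the probes named here with a single symbol. Sox17, an endoderm transcription factor, was at 0.03 in the p14/p13 pair, 0.0050 in the p12/p12 pair and -0.08 in the NT1 1 pair. The keratins Krt18 and Krt19 were above 0 in all 3 pairs, Krt18 at 0.37, 0.64 and 0.12 and Krt19 at 0.13, 0.44 and 0.07. In the fit on arrays Krt18 passed against 0 in the p14/p13 pair at 0.36 and in the p12/p12 pair at 0.64 (limma adjusted p = 0.047 in each). The cadherin Cdh2 was below 0 in all 3 pairs, at -3.01, -0.17 and -0.41. In the fit on arrays it was at -1.91, -0.17 and -0.41 and passed in none of them (limma adjusted p = 0.088, 0.93 and 1.00). Both probes of Vim, an intermediate filament of parietal endoderm and fibroblasts alike, were higher between the pairs at 1.36 and 1.23 (limma adjusted p = 0.016 and 0.028), and Snai1 was lower at -0.81 (limma adjusted p = 0.013). All 13 values of each Vim probe were whole numbers, so their spread is seen only in coarse steps. When arrays 4 and 5 of the p14/p13 pair were left out, 1 of 10 probes of the list passed, and it was lower. The list's median was 0.03, 0.0050 and -0.10 in the 3 pairs.

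Markers of fibroblasts were set beside the members. Of 30 such genes 20 were measured, and their medians were 0.39 in the p14/p13 pair, -0.20 in the p12/p12 pair and -0.34 in the NT1 1 pair, where the members' median was 0.14. Between the first pairs 10 of 25 probes passed, all higher, beside 25.5% of all probes in either direction (limma adjusted p = 0.0098 to 0.040). They measured Acta2, a smooth muscle actin, at 1.87, the fibrillar collagen chains Col1a1 at 1.74 and 1.30, Col3a1 at 1.35, Col1a2 at 1.18 and Col5a2 at 1.14, and S100a4 at 1.37, Ccn2 at 1.29, Fbln2 at 0.69 and Timp1 at 0.55. The other 15 probes did not pass and lay on both sides of 0, with Dcn at -0.34 and Prrx1 at -0.27. Among them was a second Col1a2 probe, at 0.23 (limma adjusted p = 0.71). Of the probes that passed, S100a4 read whole numbers on 13 arrays and Col5a2 on 12. Fbln2 and Timp1 read them on 0 arrays and the rest on 5 to 9. In the p14/p13 pair against 0, a probe of Ccn1 was higher at 1.09 (limma adjusted p = 0.018). Cdh11 averaged 0.22 and Thy1 -0.22 over the 3 pairs, with the same sign in each. Leaving out arrays 4 and 5 of the p14/p13 pair, 9 of 24 passed, all higher. With arrays scaled to the same spread 1 of 25 passed, and with ribosomal centring 2 were higher and 6 lower. The median of the markers ran between 0.03 and 0.56 on the arrays of the p14/p13 pair, between -0.38 and -0.11 on those of the p12/p12 pair and at -0.44 and -0.30 in the NT1 1 pair. Serpinh1 and Sparc are also fibroblast products, and Fbln2 is on both lists. The part of fibroblast RNA in the member ratios was not tested, nor was that of the ribosomal protein genes.

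**Figure D3:**
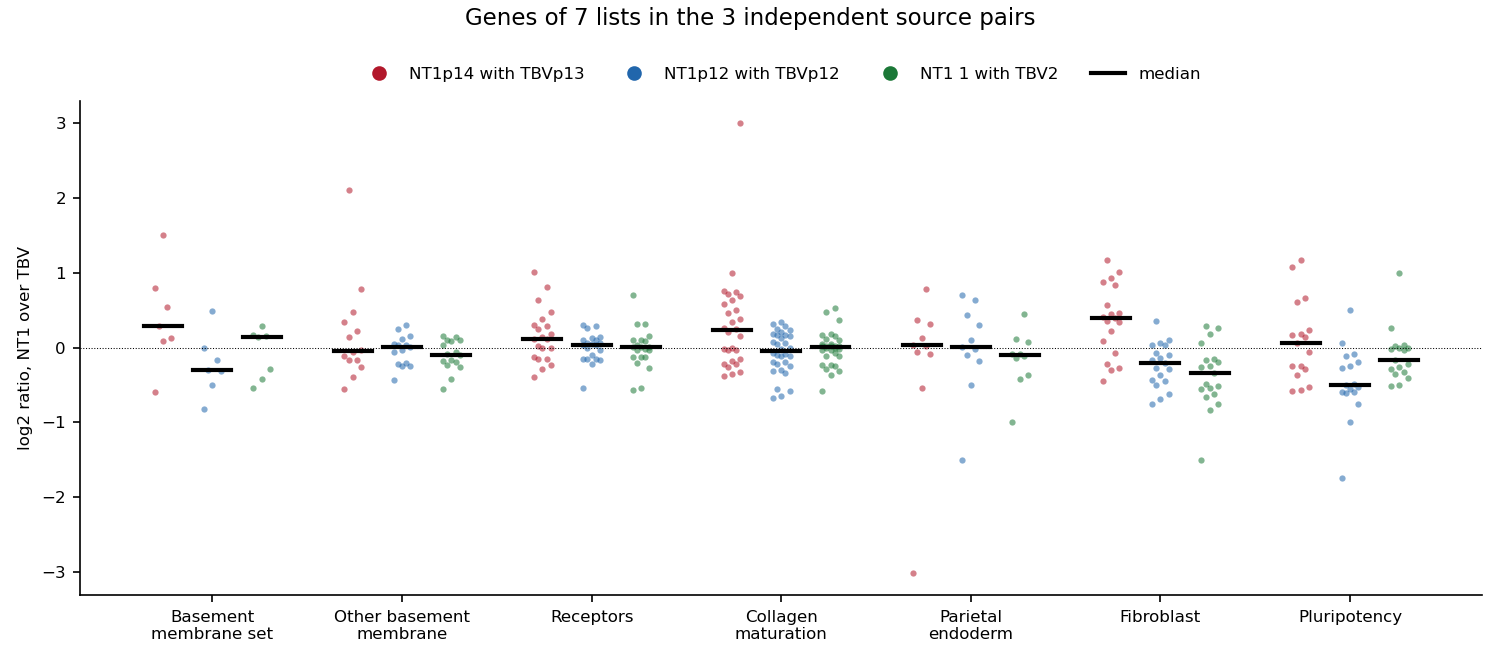
Log2 ratio of NT1 over TBV (vertical axis) of each measured gene of 7 lists in the 3 independent source pairs, 1 point a gene, with black bars at the medians. The fibroblast list lies at 0.39, -0.20 and -0.34 and the basement membrane set at 0.29, -0.30 and 0.14 in the p14/p13 pair, the p12/p12 pair and the NT1 1 pair.

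**Figure D4:**
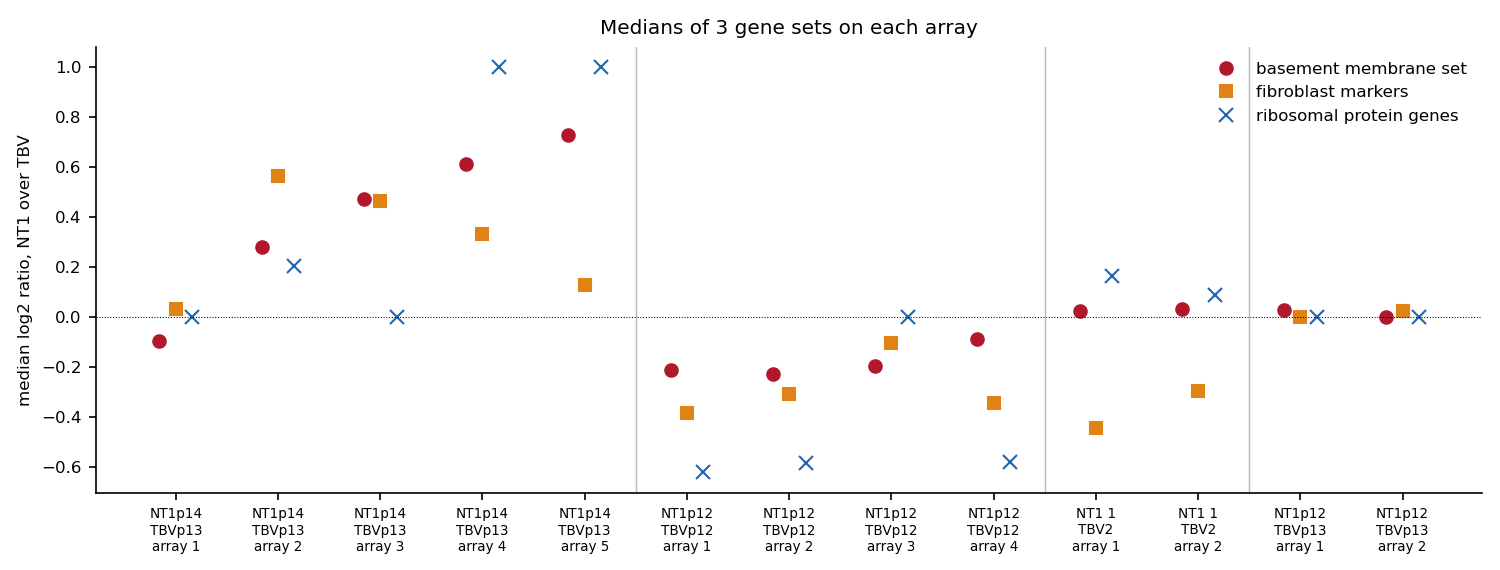
Median log2 ratio of NT1 over TBV (vertical axis) of the basement membrane set, the fibroblast markers and the ribosomal protein genes on each of the 13 arrays, with grey lines between source pairs. The set lies at -0.10 to 0.73 on arrays of the p14/p13 pair and at -0.23 to -0.09 on those of the p12/p12 pair.

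Members varied together to different degrees. Over 13 arrays, which share RNA sources and so are not independent, Sparc (probe 1) correlated with the mean of 4 other members at r = 0.95, Serpinh1 and Lamc1 (mean of probes 1 and 2) at 0.79 each, Nid2 at 0.40 and Lama1 at 0.38. Col4a1, Col4a2 and the other probes lacked values on some arrays and did not enter. Whole numbers made up 11 of 13 values of Sparc probe 1 and of Lamc1 probe 2, 6 of Serpinh1, 3 of Lama1 and 0 of Nid2. Members were not asked for decimals, unlike the genes that follow, so these r values rest partly on coarse steps. Of 5599 other genes with a value on all arrays and decimals on at least 8, those most like the mean of the 5 members were Lamp1, a lysosomal membrane protein, at r = 0.98, Twf1, an actin-monomer binding protein, at 0.97, and Gins3, a DNA replication factor, at 0.96. Slc13a4, 1110038B12Rik, Yrdc, Fundc2 and 1700029H14Rik followed at 0.96 each, and the median over all these genes was -0.14. Lamp1 was at 0.86 in the p14/p13 pair, -0.44 in the p12/p12 pair and -0.29 in the NT1 1 pair.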

How the data were processed

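The table gave 1 value per probe and array, and these deposited values were taken as log2 ratios made by the authors. Their log base, numerator, normalisation and filters are not given in the sources used here. Dyes and sources were taken per the labels, and the number of arrays limits the precision. The platform annotation gave 11723 probes 1 symbol, 806 several and 7676 none, and 11590 symbols matched RefSeq by Entrez ID. Probes with several symbols were left unnamed.

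Arrays were centred on their medians and turned to NT1 over TBV. The first fit took 1 dye-balanced value for each of 3 source pairs, and the second took 13 arrays with 4 pair means and a dye term. Both were limma fits (version 3.58.1 under R 4.3.3), two-sided, with Benjamini-Hochberg adjustment over all probes (15973 and 14299) and a threshold of 0.05. Both were tried on simulated data with normal noise, no missing values and no whole numbers. The planted differences between pairs were larger than those of the members, so this trial does not cover data such as theirs. Python 3.11.15 with matplotlib 3.10.9 drew the figures.

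The members, the 9 further lists and the tests were chosen with earlier results of these data known. Named were the 7 members and Sall4, genes of each list past the threshold between the pairs or in one of them, up to 6 more of each list with the same sign in all 3 pairs and the largest means, and the 8 genes most like the members. Sox17, Lama5, Dcn, Prrx1, the lineage factors without a value and other genes outside that rule were named after their values were seen. Alternatives covered centring, scaling, dye orientation, missing and whole-number values, averaging of probes, and leaving out pairs or arrays.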

Additional observations from a re-analysis of the deposited data

Results flagged for a closer look

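Of 17 groups of 4 or 5 arrays tested, those of Sall4 included, 2 held an array far from the others. Chance flags about 1 in 20 groups of normally spread values, a rate that need not hold for whole numbers. Sparc probe 1 read 0 on array 3 of the p12/p12 pair and -1 on the other 3 arrays of that pair, all whole numbers. Sparc probe 3 read -6 on array 4 of the same pair, against -0.30 to 0.56 on its other arrays, and this probe entered no test.

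In the limma fit on 13 arrays, the difference in the NT1 over TBV ratio between the p14/p13 pair and the p12/p12 pair was itself tested. It passed for 25.5% of all 14299 probes, and for 4 of the 10 member probes. The differences were 2.01 for Serpinh1 (limma adjusted p = 0.0098), 1.77 for Sparc probe 1 (limma adjusted p = 0.012), 1.40 for Lamc1 probe 2 (limma adjusted p = 0.011) and 0.91 for Col4a1 probe 1 (limma adjusted p = 0.022). All 5 arrays of the first pair lay above all 4 of the second for Serpinh1 and Lamc1 probe 2, and the pairs met at 0 for the other probes. The share of all probes with such a gap was not counted, and the values of Lamc1 probe 2 in both pairs were whole numbers.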

How the results depend on the processing

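Serpinh1, Sparc probe 1 and Lamc1 probe 2 passed between the p14/p13 pair and the p12/p12 pair without any single one of the 9 arrays, at 1.86 to 2.25, 1.5 to 2 and 1.22 to 1.54, and Col4a1 probe 1 passed in 6 of the 8 such fits it could enter, at 0.82 to 1.02. With whole numbers taken as missing, all 4 of these probes gave no value, and Col4a2 at -0.97 passed as lower (limma adjusted p = 0.016). Without the dye term Col4a1 probe 1 at 0.80 did not pass (limma adjusted p = 0.11). With scaled arrays Col4a2 in the p12/p13 pair was at 1.24 and passed (limma adjusted p = 0.013), against 0.41 and no call without scaling. In a single dye orientation, an alternative chosen after seeing the data, 0 probes passed with NT1 in Cy5 and 0 with TBV in Cy5, and Serpinh1 stood at 2.10 (limma adjusted p = 0.22) and 1.91 (limma adjusted p = 0.37). Few arrays remain in each such fit.

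The count of probes past the threshold between these pairs was 3646. It was 8757 with ribosomal centring, 1043 with scaled arrays, 2390 without the dye term, 1410 on the 9 arrays of both pairs, 2264 with whole numbers missing and 1741 with probes of a gene averaged. It was 1193 without arrays 4 and 5 of the p14/p13 pair (chosen after seeing the data), and 599 to 4490 with 1 array left out, the low counts being 599, 601 and 822 without arrays 2, 4 and 1 of the p12/p12 pair and 2062 without array 5 of the p14/p13 pair. Against 0, the p14/p13 pair had 2654 probes, and 4746 with ribosomal centring, 22 scaled, 747 without the dye term, 3 without arrays 4 and 5, and 15 to 3728 with 1 array left out (15, 50 and 1121 without arrays 5, 4 and 2). The p12/p12 pair had 98, and 3 with ribosomal centring, 1036 without those arrays, and 0 to 388 with 1 of its arrays left out. The NT1 1 pair had 3, and 0, 11 and 6 with ribosomal centring, scaling and without those arrays. The p12/p13 pair had 1, and 0, 1840 and 2 in the same order. Across the 3 pairs the count was 0, and 1 with ribosomal centring and 2 on 13 arrays with the pair as a random block.

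Member estimates that changed sign were small or uncalled, except Lama1 between the pairs at -0.62 with ribosomal centring. With that centring the other turned differences were Lamc1 probe 3 at -0.66, Nid2 at -0.62 and Col4a1 probe 2 at -0.012. In the p14/p13 pair Lama1 turned to -0.18, Lamc1 probe 2 to -0.050, Lamc1 probe 3 to -0.19 and Nid2 to -0.34. In the p12/p12 pair Lama1 turned to 0.44, Col4a1 probe 2 to 0.31 and Nid2 to 0.28, and in the NT1 1 pair Lamc1 probe 1 turned to -0.036. With scaling, Lama1 in the p12/p12 pair was at 0.011 and Lamc1 probe 3 at -0.00097. Without arrays 4 and 5, Lama1 was at -0.087 between the pairs and at -0.089 in the p14/p13 pair, Lamc1 probe 2 at -0.0065 and Nid2 at -0.054 there. With TBV in Cy5 the Nid2 difference was -0.0089. Across the 3 pairs, Lamc1 probe 3 was at -0.11 with ribosomal centring and -0.15 scaled, Nid2 at -0.017 with ribosomal centring, -0.0060 with 4 pairs and -0.10 with TBV in Cy5. With NT1 in Cy5 Lamc1 probe 1 was at 0.10 and Col4a1 probe 1 at -0.34, and Sparc probe 1 was at 0.077 with the random block. With 1 pair or array left out, the 3-pair means ran at -0.52 to 0.50 for Serpinh1, -0.73 to 0.14 for Sparc probe 1, -0.14 to 0.061 for Lamc1 probe 1, -0.69 to 0.021 for Lamc1 probe 2, -0.27 to 0.33 for Lamc1 probe 3, -0.13 to 0.35 for Col4a1 probe 1, -0.21 to 0.34 for Col4a2 and -0.037 to 0.12 for Nid2. In the p12/p12 pair they ran at -0.051 to 0.036 for Lama1, -0.020 to 0.064 for Lamc1 probe 1 and -0.075 to 0.12 for Lamc1 probe 3. Apart from fits with fewer arrays or probes, the cause was not tested.

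The table carries no intensities, so signal over background could not be weighed. Each group is an RNA source measured repeatedly, and biological replicates of a passage were not analysed here. Every value already pairs NT1 with TBV on the same array. Arrays of different source pairs could not be matched further, because replicate numbers only name the arrays within a source pair.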

Other observations

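Matrix proteases and their inhibitors showed 3 of 17 probes higher and 1 lower in the p14/p13 pair than in the p12/p12 pair, with 15 of 25 listed genes measured. This share was near that of all probes, of which 12.7% were higher and 12.8% lower, the background for visceral endoderm markers as well. The lysosomal protease Ctsd was higher at 1.56 (limma adjusted p = 0.012), a probe of the gelatinase Mmp9 at 0.84 (limma adjusted p = 0.029) and the protease inhibitor Timp1 at 0.55 (limma adjusted p = 0.025). Another Mmp9 probe was at 0.03 and did not pass (limma adjusted p = 0.92). Hpse, the heparanase that cleaves heparan sulfate chains of basement membranes, was lower at -0.91 (limma adjusted p = 0.048). Ctsd and Hpse each read whole numbers on 10 arrays. Without arrays 4 and 5 of the p14/p13 pair no probe of 15 passed in limma, and 3 were higher and 2 lower at an unadjusted p under 0.05. Visceral endoderm markers, 16 of 24 measured, had 1 of 12 probes higher, Lefty1 at 1.59 (limma adjusted p = 0.0098), and 1 lower, the apolipoprotein Apoa1 at -0.66 (limma adjusted p = 0.039). All 13 values of Lefty1 were whole numbers. In the p14/p13 pair against 0, the protease Mmp14 was higher at 0.47 (limma adjusted p = 0.048) and the visceral endoderm marker Spink1 lower at -0.55 (limma adjusted p = 0.034). Spink1 was below 0 in all 3 pairs, with a mean of -0.53, and Adamts1 above, with 0.05.

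Pluripotency markers, 17 of 25 measured, had medians of 0.07 in the p14/p13 pair, -0.50 in the p12/p12 pair and -0.16 in the NT1 1 pair. Between the first pairs 7 of 18 probes passed, all higher, beside 25.5% of all probes in either direction (limma adjusted p = 0.012 to 0.031). They measured Klf2 at 1.58, Nr0b1 at 1.20, Zfp42 at 1.17, Lin28a at 1.16, Dppa5a at 0.95, Pou5f1, which encodes a core pluripotency factor, at 0.77 and Sall4 at 0.66. Zfp42, Lin28a, Dppa5a and Pou5f1 each read whole numbers on 11 arrays and Klf2 on 8, whereas Nr0b1 and Sall4 read them on 0. Higher here means a ratio closer to 0 or above it, since NT1 lay below TBV in both pairs for Zfp42, at -0.58 in the p14/p13 pair and -1.75 in the p12/p12 pair, and for Pou5f1, at -0.23 and -1 in the same order. Against 0, 18.6% of all probes passed in the p14/p13 pair and 0.685% in the p12/p12 pair, in either direction. Of this list, 3 probes were higher and 3 lower in the p14/p13 pair, and 4 were lower in the p12/p12 pair, namely Zfp42, Pou5f1, Sall4 at -0.59 and Esrrb at -0.48 (limma adjusted p = 0.011 to 0.036). Those of the p14/p13 pair were Dnmt3l at 1.17, Klf2 at 1.03 and Lin28a at 0.66 on the higher side, and Fgf4 at -0.53, Zfp296 at -0.36 and Esrrb at -0.25 on the lower (limma adjusted p = 0.022 to 0.044). All 13 Dnmt3l values were whole numbers. Over the 3 pairs 7 of 17 genes were below 0 in each, among them Klf4 with a mean of -0.32, and 1 was above, Dnmt3l with a mean of 0.89. Of all 7978 named genes with a value in the 3 pairs, 456 were below 0 in each and 707 above. Leaving out arrays 4 and 5 of the p14/p13 pair, 2 of 16 passed, both higher, and with ribosomal centring 6 of 18 passed, all lower. Trophoblast markers had 1 of 7 probes higher between the first pairs, Ascl2 at 1.35 (limma adjusted p = 0.030), and 1 lower, Tead4 at -0.36 (limma adjusted p = 0.045), beside 12.7% of all probes higher and 12.8% lower. Cldn4 was above 0 in all 3 pairs, with a mean of 0.33, and Lgals3 below, with -0.07.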
